A study of Mus musculus with 12 samples.

Results

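The genes of the proteasome were followed across 12 libraries of mouse microglia, the resident macrophages of the brain. They were taken by name, as the rows whose symbol starts with Psm, a letter from a to g and a digit. The immunoproteasome subunits Psmb8, Psmb9 and Psmb10 and pseudogenes were left out. The rule matched 47 of the 23845 rows: 8 alpha-ring and 8 beta-ring subunits of the 20S core, 6 ATPases and 11 other subunits of the 19S cap, 5 activators, 1 inhibitor and 7 assembly chaperones. The last row, Psmc3ip, shares only the start of its name with the subunits, since it encodes a partner of Psmc3 that acts in meiotic recombination. After the filter on low counts 46 of the 47 genes could be tested. The exception was Psmb11, a thymus-specific beta subunit with 26 counts in all libraries together.

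The proteasome is the main protease complex of the cytosol and nucleus. It degrades proteins that carry ubiquitin chains: the 19S cap binds the chain, removes it and unfolds the protein with its ring of ATPases, and the 20S barrel cuts it at sites on the inner face of its beta rings. Microglia rely on it for the turnover of signalling proteins such as the inhibitors of NF-kappa B, and activated macrophages also use it to make peptides for antigen presentation.

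The cells came from Percoll gradients of C57BL6/J mice, 3 to 4 months of age, with 1 animal per library and 3 libraries per group. The groups were wild type (WT), wild type injected with lipopolysaccharide (WT-LPS), animals labelled as CPEB1 knockout (CPEB1-KO), and knockouts given the same injection (CPEB1-KO-LPS). Lipopolysaccharide (LPS), a bacterial cell wall component that activates innate immunity, was given 24 h before the cells were collected. The CPEB1 protein binds mRNAs in the cytoplasm and regulates their poly(A) tails and translation. The LPS dose, the route, the sex of the animals and the knockout allele are not stated in the sources used here. Libraries were made by poly(A) selection.

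Total expected counts were 5.02 to 13.5 M (1e+06) per library. In TPM (transcripts per 1e+06 transcripts), WT had 15.5 to 43.3 of Cpeb1 itself and CPEB1-KO had 17.6 to 26.4, while WT-LPS had 24.1 to 45.1 and CPEB1-KO-LPS had 24.0 to 40.6. The ranges overlapped, and since the deleted part of the gene is not known a sum over the whole gene does not check the genotype labels. All 8 microglia markers were above 0 in every library. WT had 7989 to 9745 TPM of them in sum and WT-LPS had 1909 to 8985 TPM, while CPEB1-KO had 3923 to 6566 TPM and CPEB1-KO-LPS had 1929 to 6536 TPM. The 8 neuron markers were also above 0 in every library, and summed to 1418 to 3988 TPM (WT), 1978 to 5856 TPM (WT-LPS), 3662 to 5103 TPM (CPEB1-KO) and 2338 to 4432 TPM (CPEB1-KO-LPS). The 4 erythroid markers in the tables, all above 0 throughout, summed to 41663 to 66991 TPM (WT), 6544 to 10887 TPM (WT-LPS), 27877 to 37849 TPM (CPEB1-KO) and 7051 to 61141 TPM (CPEB1-KO-LPS). The part of these differences in the results below was not tested. In such bulk samples, fewer cells of a type and less RNA per cell cannot be told apart.

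The 20S and 19S subunits other than Psma8 and Psmb11 had group means of 22.3 to 469 TPM. On the TPM scale, which is per length and so allows levels of different genes to be compared, the 31 subunits other than Psma8 and Psmb11 had median group means of 123 TPM (WT), 192 TPM (WT-LPS), 146 TPM (CPEB1-KO) and 212 TPM (CPEB1-KO-LPS). Psmd11, the lid subunit that clamps the cap to the barrel, was the lowest of the 31 in all 4 groups, at 22.3 ± 4.07 TPM (SD, n = 3) in WT. The highest was the beta subunit Psmb4 in 3 groups, at 313 ± 91.3 TPM in WT, and the beta subunit Psmb3 in WT-LPS, at 440 ± 64.7 TPM. Within the alpha ring the highest mean over all libraries was that of Psma7 (290.2 TPM) and the lowest that of Psma8, a testis-specific form, at 1.58 TPM and 173 counts in all. Among the ATPases Psmc5 was highest (282 TPM) and Psmc6 lowest (99.5 TPM), and among the other 19S subunits Psmd4, a ubiquitin receptor, was highest (209.6 TPM).

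Among the genes outside the particle proper, Psme1 and Psme2 had levels within the range of the core and cap subunits. The activators ranged from 12.2 TPM for Psme2b to 239.9 TPM for Psme1 as means over all libraries, with Psme2 at 231.8 TPM. Psme2b is a retrocopy of Psme2, so reads of the pair may have been split between them and the values of both are uncertain. Psmf1, the inhibitor also known as PI31, averaged 17.5 TPM. The chaperones ranged from 23.7 TPM for Psmd9 to 70.7 TPM for Psmg4. Psmc3ip averaged 5.97 TPM.

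Promoters are shown for members with different outcomes: Psmd11 and Psmd12, lid subunits called in wild type and on average, Psma6, the alpha subunit with the lowest p-value in wild type and on average, Psme1, an activator, and the catalytic subunit Psmb5, which was not called. Each sequence is the RefSeq window on GRCm38.p6 from 250 bases before the annotated start to 30 bases after it, written along the strand of the gene. Capitals mark, on either strand, CCGGAAG, the core of an ETS-family site, TGACNNNGC, the core of the antioxidant response element to which NRF1 (Nfe2l1) and its relatives bind, and the core of the interferon-stimulated response element, which is a pair of GAAA runs separated by 2 bases. The windows are chr11:80428365-80428644 (Psmd11), chr11:107479278-107479557 (Psmd12), chr12:55398575-55398854 (Psma6) and chr14:55578244-55578523 (Psme1) on the forward strand and chr14:54617966-54618245 (Psmb5) on the reverse strand. For Psma6 the table held 2 windows, and the one with more matches is shown.
Psmd11 promoter: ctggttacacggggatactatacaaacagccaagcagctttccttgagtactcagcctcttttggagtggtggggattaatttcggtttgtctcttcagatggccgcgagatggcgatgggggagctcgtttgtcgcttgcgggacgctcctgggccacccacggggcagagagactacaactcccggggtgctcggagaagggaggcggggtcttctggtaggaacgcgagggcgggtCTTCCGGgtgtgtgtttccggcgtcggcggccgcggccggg
Psmd12 promoter: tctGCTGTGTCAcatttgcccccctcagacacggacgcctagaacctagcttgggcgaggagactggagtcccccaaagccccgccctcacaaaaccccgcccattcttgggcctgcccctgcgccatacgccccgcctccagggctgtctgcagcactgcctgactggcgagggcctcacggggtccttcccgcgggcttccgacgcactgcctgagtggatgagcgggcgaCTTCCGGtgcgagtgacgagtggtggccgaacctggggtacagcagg
Psma6 promoter: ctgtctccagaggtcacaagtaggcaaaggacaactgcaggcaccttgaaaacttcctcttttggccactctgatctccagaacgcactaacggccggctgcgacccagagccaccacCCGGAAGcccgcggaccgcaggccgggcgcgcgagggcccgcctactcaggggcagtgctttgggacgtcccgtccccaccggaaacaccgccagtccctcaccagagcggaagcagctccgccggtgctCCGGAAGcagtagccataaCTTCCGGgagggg
Psme1 promoter: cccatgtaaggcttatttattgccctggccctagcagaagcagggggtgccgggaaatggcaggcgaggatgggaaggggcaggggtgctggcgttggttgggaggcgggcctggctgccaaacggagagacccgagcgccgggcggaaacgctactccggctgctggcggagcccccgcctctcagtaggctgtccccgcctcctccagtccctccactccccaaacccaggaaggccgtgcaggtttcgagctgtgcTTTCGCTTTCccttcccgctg
Psmb5 promoter: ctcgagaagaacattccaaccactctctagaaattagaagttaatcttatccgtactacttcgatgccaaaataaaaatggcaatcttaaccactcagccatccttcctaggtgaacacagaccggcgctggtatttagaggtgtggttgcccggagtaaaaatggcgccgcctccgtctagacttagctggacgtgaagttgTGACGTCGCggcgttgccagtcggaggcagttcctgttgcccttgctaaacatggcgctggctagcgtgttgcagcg

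Psmd11 had 1 ETS core, which started 11 bases before the annotated start on the opposite strand, and Psmd12 had 1 that started 17 bases before it. Psma6 had 3, at 132 and 2 bases before the start and 17 bases after it. In Psme1 the interferon-type core lay 9 bases after the start. An antioxidant-type core lay 47 bases before the start in Psmb5 and, on the opposite strand, 247 bases before it in Psmd12. Of the 47 genes, 39 had a promoter window, and 8 motifs were searched on both strands of the full window, which ends 50 bases after the start. CCGGAAG was present in 15 of the 39 (38.5%), against 9.93% of all 27025 genes with a window. This background was not limited to the 15295 genes tested here, so it includes genes with few or no counts. ACTTCCG, which overlaps CCGGAAG when read on the other strand, was present in 14 (35.9%), against 7.20% of all genes. The interferon-type core was present in 5 (12.8%), in Psmb3, Psmd4, Psmd9, Psme1 and Psmg4, against 3.99%. TGACNNNGC was found in 6 (15.4%), against 14.0%, and CCAAT in 14 (35.9%), against 41.1%. TTCNNNGAA was found in 2 (against 9.55%), TCGCGA in 1 (against 2.86%) and GGGA and TTTCC separated by 1 base, an NF-kappa B type of site, in none (against 0.466%). Of the 20 windows of genes that passed the test of the average LPS difference below, 8 held CCGGAAG, as did 7 of the 19 other windows. The motifs and the promoters shown were chosen after the values had been seen, a match is a description of the sequence, and no test was made.

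The first comparison asked how the proteasome genes differed 24 h after LPS in wild-type animals. In WT-LPS against WT, 12 of the 46 genes tested rose and 1 fell at a false discovery rate (FDR) of 0.05 over all 15295 genes (edgeR quasi-likelihood test with Benjamini-Hochberg adjustment). That is 26.1% higher, against 12.4% of all genes tested, and 1 lower, against 14.9%. DESeq2 called 17 of the 46 in either direction, against 33.2% of all genes. The median log2 fold change of the 46 genes was 0.31, against -0.03 over all genes, and 35 of them (76.1%) had a positive value, against 48.6% of all genes. On the TPM scale 25 of the 46 had their 3 WT-LPS libraries above their 3 WT libraries without overlap (54.3%, against 27.4% of all genes tested). On that scale the median of all genes was itself shifted by 0.28 between the groups, and that of the 46 genes was 0.65.

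The 19S cap held most of the genes that rose. They were 6 of its 11 non-ATPase subunits, Psmd11, Psmd14, Psmd12, Psmd1, Psmd2 and Psmd6. Psmd11 had 27.0, 20.6 and 19.4 TPM in the 3 WT libraries and 53.9, 57.7 and 54.9 TPM in WT-LPS. The groups were far apart, with every LPS library at about the same level, and the fitted change was 0.97 ± 0.19 (log2, SE; adjusted p = 0.00344), or 1.95-fold. Psmd14, the deubiquitinase that cuts off the ubiquitin chain, had 76.5, 48.8 and 57.2 TPM in WT and 147, 142 and 124 TPM in WT-LPS. Its groups did not overlap either, and its change was 0.85 ± 0.18 (adjusted p = 0.00441). Psmd12, a lid scaffold, changed by 0.80 ± 0.18 (adjusted p = 0.00586) and Psmd1, a scaffold of the base, by 0.80 ± 0.19 (adjusted p = 0.00765). These 4 genes passed in each of the 12 fits that left out 1 library.

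Smaller changes passed in the other classes. In the core particle 2 alpha subunits, Psma6 (0.70 ± 0.20, adjusted p = 0.0191) and Psma2 (0.69 ± 0.21, adjusted p = 0.0269), and 1 beta subunit, Psmb2 (0.65 ± 0.20, adjusted p = 0.0285), were higher. Psma6 had 189, 137 and 126 TPM in WT and 348, 319 and 262 TPM in WT-LPS, without overlap. Among the ATPases, which unfold the substrate, only Psmc6 passed (0.48 ± 0.16, adjusted p = 0.0431). Psmd2, the docking subunit for ubiquitin shuttles (0.59 ± 0.19, adjusted p = 0.0352), Psmd6 (0.53 ± 0.17, adjusted p = 0.0348) and Psmd9, a chaperone of the ATPase ring (0.59 ± 0.21, adjusted p = 0.0479), completed the higher genes together with the activator Psme3. Leaving out WT replicate 3 or WT-LPS replicate 2 left 5 of the 46 genes called, higher and lower together (against 18.9% and 19.8% of all genes). Leaving out CPEB1-KO replicate 2, a library of neither group, left 8 (against 22.9% of all genes). Counted in either direction, a smaller share of the proteasome genes than of all genes was called in each of these fits. By direction, 4, 4 and 8 proteasome genes were called higher. Over all genes 1340 of 15513, 1403 of 15572 and 1594 of 15497 were called higher in the same fits. Each of the 9 calls beyond Psmd11, Psmd14, Psmd12 and Psmd1 was lost in 2 to 8 of the 12 such fits. A fit on the 2 groups alone left 3 called (against 17.7% of all genes).

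The 3 catalytic beta subunits were not among the genes that passed. Psmb5, which carries the chymotrypsin-like activity, had 330, 134 and 136 TPM in WT and 369, 248 and 202 TPM in WT-LPS. WT replicate 1 lay within the range of the LPS libraries, so the groups overlapped, and the difference was 0.14 ± 0.29 (adjusted p = 0.742). WT replicate 1 and WT-LPS replicate 1, the highest Psmb5 libraries of their groups, also had the highest neuron marker sums of their groups, 3988 and 5856 TPM. Without both libraries 11 of the 46 genes passed, all of them higher. Of the 15489 genes tested in that fit, 2105 were called higher and 2225 lower. Counted in either direction, 28.0% of all genes were called, and the share of the proteasome genes was no higher. In the main fit the shares in either direction were 28.3% of the proteasome genes and 27.4% of all genes. Psmb6, the caspase-like subunit (0.02 ± 0.19, adjusted p = 0.951), and Psmb7, the trypsin-like subunit (0.42 ± 0.24, adjusted p = 0.205), did not pass.

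The chaperones that build the 20S barrel had negative differences in wild type. Psmg1 fell by 0.70 ± 0.22 (log2, SE; adjusted p = 0.0339), with 37.9, 25.8 and 29.9 TPM in WT and 24.0, 27.2 and 21.5 TPM in WT-LPS. Its TPM ranges overlapped, and the call was kept in 5 of the 12 fits that left out 1 library and in neither fit on log2 TPM. Its partner Psmg2 had a difference of -0.65 ± 0.24 (adjusted p = 0.0603), Psmg3 one of -0.42 ± 0.20 (adjusted p = 0.141) and Psmg4 one of -0.49 ± 0.30 (adjusted p = 0.239). None of these 3 passed.

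**Figure D1:**
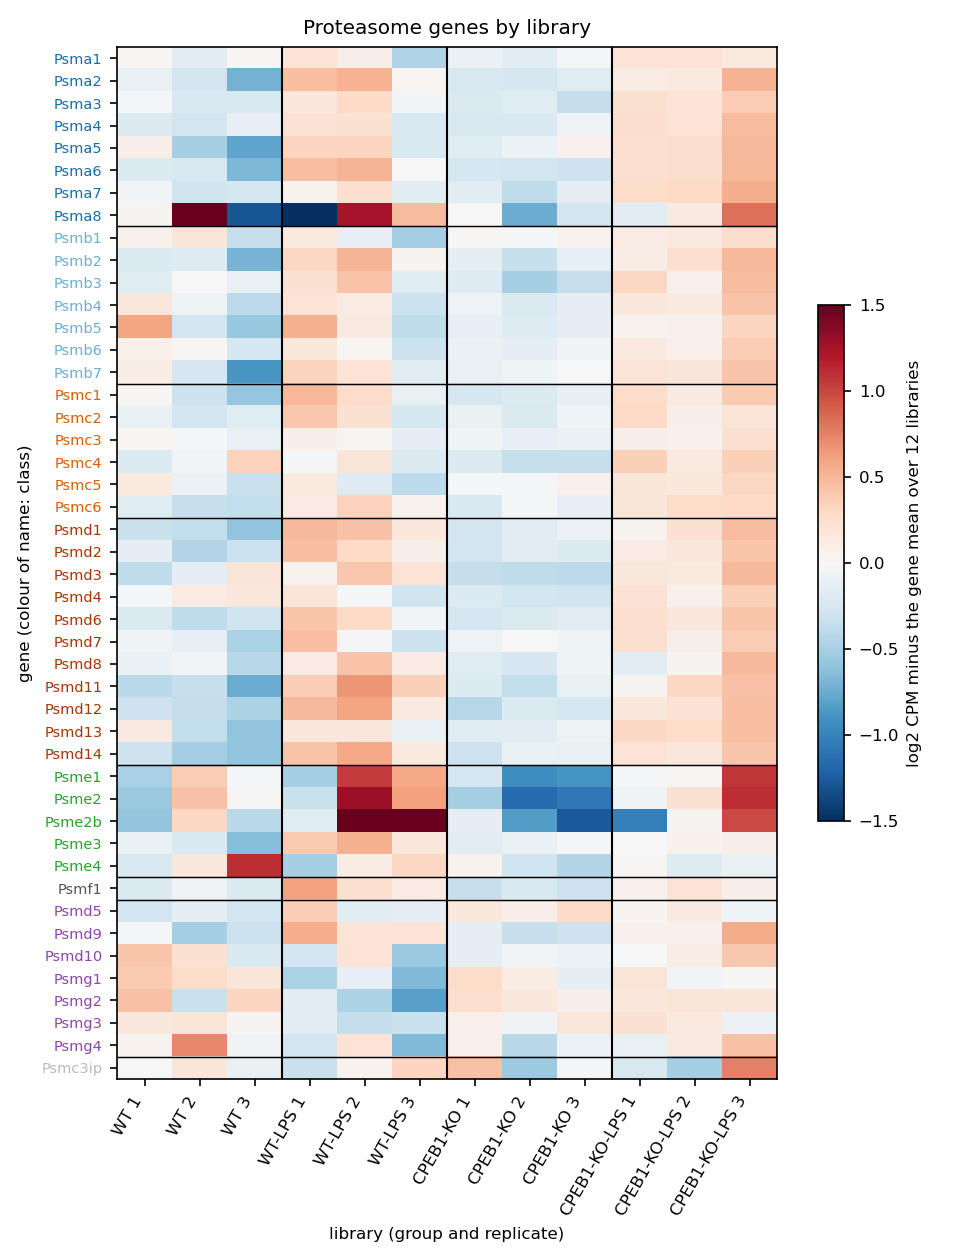
Level of each of the 46 proteasome genes tested (rows, names coloured by class) in each library (columns), as log2 counts per 1e+06 counts after TMM scaling minus the mean of the gene over the 12 libraries; colours end at -1.5 and 1.5. Of the 31 core and cap rows other than Psma8, 27 to 31 are above their mean in each LPS library except WT-LPS replicate 3, where 11 are; 11, 4 and 4 are above it in the WT libraries and 1, 0 and 4 in CPEB1-KO. By contrast, Psme1, Psme2 and Psme2b follow single libraries within groups and the Psmg rows do not follow the 20S and 19S rows in WT-LPS.

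The response was also read in the animals labelled as knockouts. In CPEB1-KO-LPS against CPEB1-KO no proteasome gene passed FDR 0.05 in edgeR, against 4.10% of all genes called higher and 2.12% lower, but 23 of the 46 had an unadjusted p under 0.05 (against 20.5% of all genes). DESeq2 called 10 higher (against 6.39% of all genes) and none lower (against 4.43%). The median log2 fold change was 0.43, against -0.00024 over all genes, and 44 of the 46 genes (95.7%) were positive, against 49.98% of all genes. In 31 genes (67.4%, against 16.2% of all genes tested) the 3 LPS libraries lay above the 3 untreated libraries in TPM. The exceptions to the positive sign were Psmd5, a chaperone of the ATPase ring (-0.14 ± 0.19, adjusted p = 0.725), and Psmg1 (-0.03 ± 0.22, adjusted p = 0.953).

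The smallest adjusted p in the knockouts belonged to Psme2, whose difference was 1.39 ± 0.41 (adjusted p = 0.0628). In the core the smallest were those of Psma7 (0.61 ± 0.18, adjusted p = 0.0681) and Psma6 (0.62 ± 0.20, adjusted p = 0.079) for the alpha ring and Psmb3 (0.64 ± 0.20, adjusted p = 0.0759) for the beta ring. In the cap they were those of Psmd12 (0.58 ± 0.18, adjusted p = 0.0687), Psmd3 (0.65 ± 0.20, adjusted p = 0.0778) and the ATPase Psmc4 (0.59 ± 0.19, adjusted p = 0.0938). Psmd11 had 32.7, 31.5 and 37.0 TPM in CPEB1-KO and 43.0, 50.5 and 44.5 TPM in CPEB1-KO-LPS. The groups did not overlap and the difference was 0.50 ± 0.19 (adjusted p = 0.15). Psmd14 had 79.9, 99.9 and 97.6 TPM before and 127, 121 and 115 TPM after LPS, again without overlap (0.44 ± 0.18, adjusted p = 0.172). For the catalytic subunits the differences were 0.30 ± 0.29 (Psmb5, adjusted p = 0.605), 0.30 ± 0.19 (Psmb6, adjusted p = 0.39) and 0.33 ± 0.24 (Psmb7, adjusted p = 0.487). Psmb5 had 215, 219.8 and 222 TPM in CPEB1-KO and 266, 264 and 247 TPM in CPEB1-KO-LPS, which did not overlap.

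**Figure D2:**
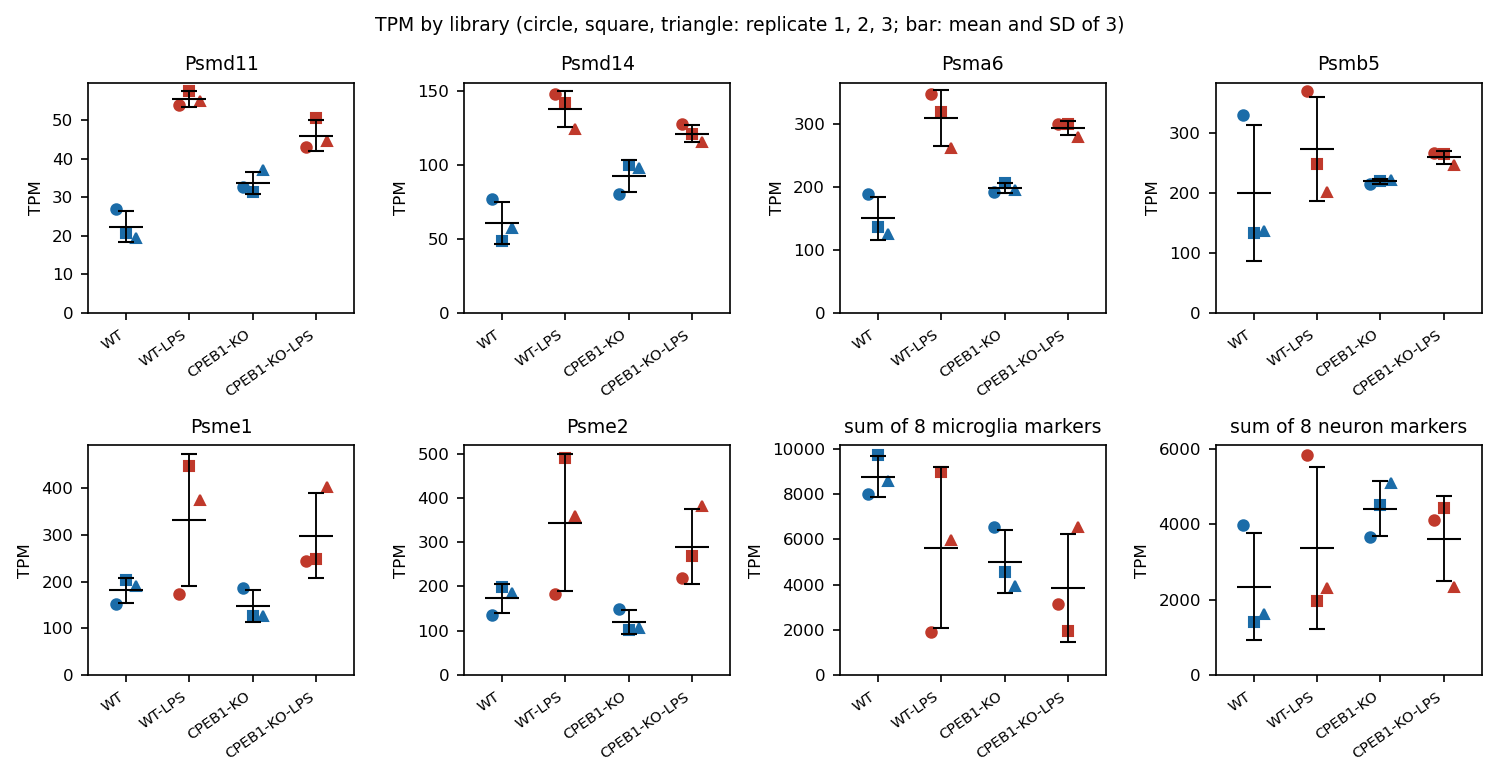
TPM in each library of Psmd11, Psmd14, Psma6, Psmb5, Psme1 and Psme2 and of the summed microglia and neuron markers, by group, with circles, squares and triangles for replicates 1, 2 and 3 (blue untreated, red LPS) and bars for the mean and SD of 3 libraries. Psmd11, Psmd14 and Psma6 are separated by treatment in both genotypes, while Psmb5 is high in WT replicate 1 (330 TPM) and Psme1 is low in WT-LPS replicate 1 (174 TPM).

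The average LPS difference over both genotypes, with 6 libraries in each arm, gave more calls. It uses the same libraries as the comparisons within genotype and is no independent evidence of them. In it 22 of the 46 proteasome genes rose (47.8%, against 13.2% of all genes tested) and none fell (against 12.5%). A further 5 had an unadjusted p under 0.05, for 27 in all (against 38.6% of all genes), and DESeq2 called 26 higher (against 16.3%) and none lower (against 15.8%). The median was 0.40, against -0.02 over all genes. Leaving out WT-LPS replicate 2 or CPEB1-KO replicate 2 left 12 called (against 18.1% and 21.6% of all genes in either direction). Leaving out CPEB1-KO replicate 1 or 3 left 14 or 13 (against 21.0% and 22.4%).

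By class, 8 of 11 non-ATPase subunits of the cap, 5 of 8 alpha subunits, 2 of 7 beta subunits, 2 of 6 ATPases, 3 of 5 activators, 1 of 7 chaperones and the inhibitor rose. The cap subunits were Psmd12 (0.69 ± 0.13, adjusted p = 0.00166), Psmd11 (0.73 ± 0.15, adjusted p = 0.00312), Psmd14 (0.64 ± 0.14, adjusted p = 0.00385), Psmd1, Psmd6, Psmd2, Psmd3 and Psmd13. The alpha subunits were Psma6 (0.66 ± 0.14, adjusted p = 0.0035), Psma2, Psma3, Psma4 and Psma7. The beta subunits Psmb2 (0.57 ± 0.14, adjusted p = 0.00972) and Psmb3 (0.46 ± 0.15, adjusted p = 0.0343), which hold no active site, rose, as did the ATPases Psmc6 (0.43 ± 0.12, adjusted p = 0.0155) and Psmc1 (0.49 ± 0.15, adjusted p = 0.028). Psmf1 had 14.2, 11.6 and 12.9 TPM (WT), 28.9, 19.5 and 21.2 TPM (WT-LPS), 13.4, 15.9 and 14.7 TPM (CPEB1-KO) and 20, 21.4 and 16.1 TPM (CPEB1-KO-LPS). LPS libraries were above untreated libraries in both genotypes without overlap, and the average difference was 0.45 ± 0.13 (adjusted p = 0.0182). Of the 22 genes, 12 passed in each of the 12 fits that left out 1 library: Psmd12, Psmd11, Psma6, Psmd14, Psmd1, Psmd6, Psmb2, Psma2, Psmd2, Psmd9, Psmc6 and Psmf1. The calls of the other 10 were lost in 3 to 10 of those fits, Psmd13 most often.

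The catalytic subunits again did not pass, at 0.22 ± 0.20 for Psmb5 (adjusted p = 0.436), 0.16 ± 0.14 for Psmb6 (adjusted p = 0.408) and 0.37 ± 0.17 for Psmb7 (adjusted p = 0.115). The 95% interval for Psmb5 was -0.20 to 0.65, which includes both 0 and the average change of Psmd14. A difference between catalytic and other subunits was not tested. The 20S chaperones had averages of -0.36 ± 0.18 (Psmg1, adjusted p = 0.156), -0.31 ± 0.19 (Psmg2, adjusted p = 0.238), -0.19 ± 0.16 (Psmg3, adjusted p = 0.407) and -0.09 ± 0.23 (Psmg4, adjusted p = 0.814), and the 19S chaperone Psmd9 one of 0.55 ± 0.15 (adjusted p = 0.0134).

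**Figure D3:**
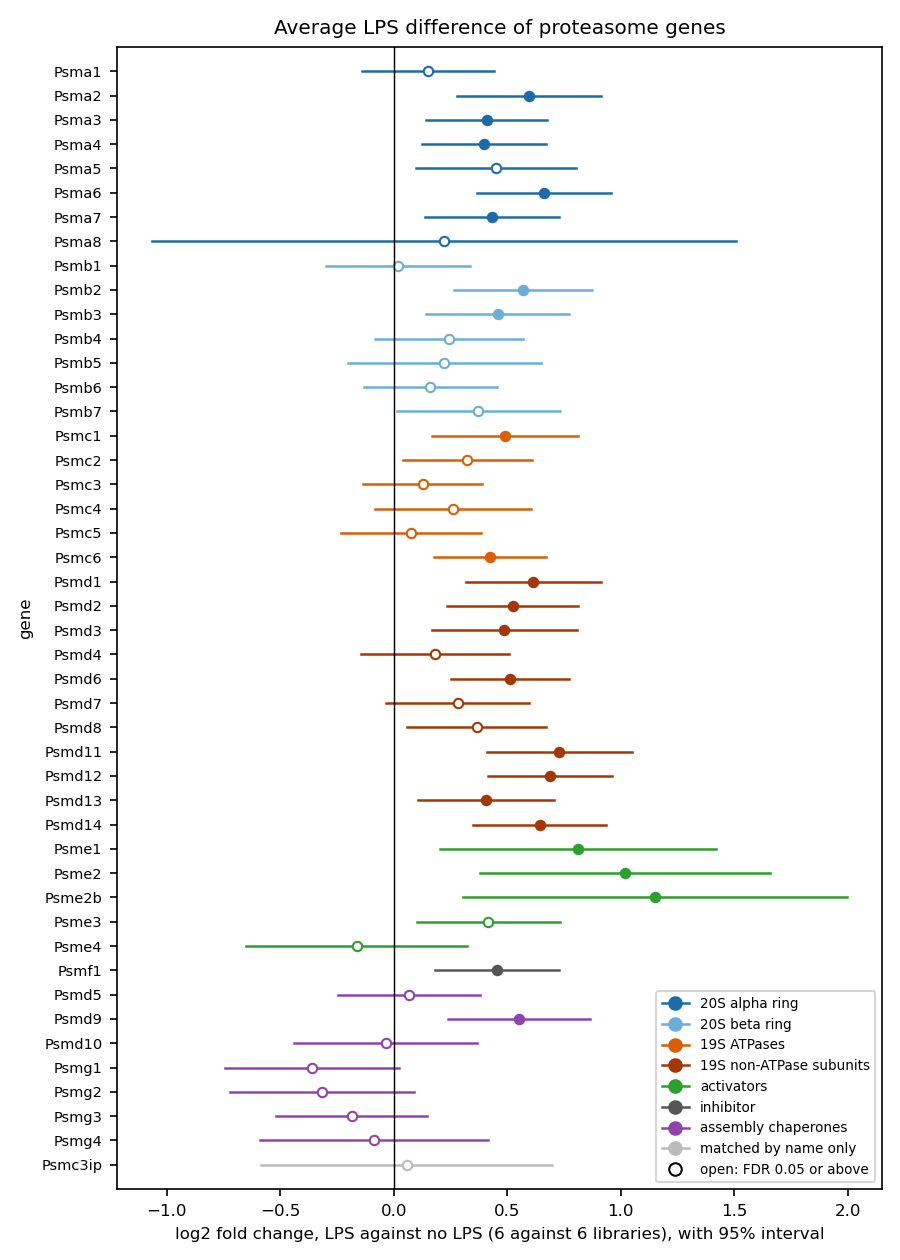
Average LPS difference of each of the 46 proteasome genes as log2 fold change over both genotypes (horizontal axis, 6 libraries against 6), with lines for the 95% interval, colours for the class and filled points for FDR under 0.05. The 22 filled points lie right of 0, most of them between 0.40 and 0.73, and the 6 points left of 0 are Psme4, Psmd10 and the 4 Psmg genes.

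Summed over the 31 core and cap subunits, the level was 5381, 3567 and 3940 TPM in WT and 7599, 6546 and 5808 TPM in WT-LPS. In CPEB1-KO it was 5123, 5372 and 5510 TPM and in CPEB1-KO-LPS 7238, 6941 and 6526 TPM. LPS libraries were higher in both genotypes without overlap, and the untreated WT libraries were the most spread (4296 ± 958 TPM, against 5335 ± 196 TPM in CPEB1-KO). After TMM scaling the median distance of the 46 genes from their own means was -0.08, -0.16 and -0.31 (log2) in the WT libraries and 0.19, 0.23 and -0.11 in WT-LPS. On that scale WT-LPS replicate 3 overlapped WT. The values were -0.17, -0.22 and -0.12 in CPEB1-KO and 0.16, 0.14 and 0.42 in CPEB1-KO-LPS, which did not overlap.

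The activators Psme1 and Psme2, which form the interferon-inducible PA28 cap of the barrel, had large differences and a wide spread within groups. Psme1 had 152, 203 and 191 TPM (WT), 174, 448 and 375 TPM (WT-LPS), 187, 127 and 127 TPM (CPEB1-KO) and 244, 249 and 403 TPM (CPEB1-KO-LPS). WT-LPS replicate 1 fell among the WT libraries, whereas the knockout groups did not overlap. The differences were 0.51 ± 0.39 in wild type (adjusted p = 0.351), 1.12 ± 0.40 in the knockouts (adjusted p = 0.122) and 0.81 ± 0.28 on average (adjusted p = 0.0486). Psme2 had 135, 199 and 185 TPM (WT), 183, 491 and 359 TPM (WT-LPS), 150, 102 and 107 TPM (CPEB1-KO) and 219, 268 and 383 TPM (CPEB1-KO-LPS). It showed the same low library in WT-LPS, with 0.64 ± 0.40 in wild type (adjusted p = 0.248) and 1.02 ± 0.30 on average (adjusted p = 0.0232). Without WT-LPS replicate 2 the averages were 0.69 for Psme1 (adjusted p = 0.131) and 0.88 for Psme2 (adjusted p = 0.0742), so neither passed. Psme2b passed on average (1.15 ± 0.40, adjusted p = 0.0452), with the doubt on shared reads given above, and kept its call in 3 of the 12 fits that left out 1 library.

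The summed microglia markers followed some of the same libraries. They were 7989, 9745 and 8596 TPM (WT), 1909, 8985 and 5989 TPM (WT-LPS), 6566, 4562 and 3923 TPM (CPEB1-KO) and 3128, 1929 and 6536 TPM (CPEB1-KO-LPS). WT-LPS replicate 1, the lowest WT-LPS library for Psme1, had the lowest marker sum of its group, and CPEB1-KO-LPS replicate 3, the highest of its group for Psme1, had the highest. The lowest marker sum in CPEB1-KO-LPS was that of replicate 2, whereas Psme1 and Psme2 were lowest in replicate 1. Between groups, WT had higher marker sums than CPEB1-KO-LPS but lower Psme1 (152 to 203 against 244 to 403 TPM). These groups differ in both genotype and LPS. The markers themselves differed unevenly in WT-LPS against WT, with log2 differences from -3.56 (P2ry12) to -0.38 (C1qa). A treated and an untreated group therefore cannot be compared in microglia content by this sum. The part of the microglia markers in the Psme1 and Psme2 values was not tested.

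Psme3 and Psme4 are activators of other kinds. Psme3, the nuclear PA28 gamma ring, had 60.8, 40.4 and 37.9 TPM in WT and 99.2, 95.3 and 86.9 TPM in WT-LPS, without overlap, and rose by 0.68 ± 0.18 (adjusted p = 0.0162). The call was lost without WT replicate 3 (0.54, adjusted p = 0.0526) and without WT-LPS replicate 2 (0.60, adjusted p = 0.0589). It had 60.5, 68.4 and 70.9 TPM in CPEB1-KO and 75.7, 77.0 and 64.1 TPM in CPEB1-KO-LPS, where the groups overlapped and the difference was 0.16 ± 0.18 (adjusted p = 0.691). On average it had 0.42 ± 0.15 (adjusted p = 0.0503). Psme4, the PA200 cap linked to histone degradation, had differences of -0.45 ± 0.31 in wild type (adjusted p = 0.298), 0.12 ± 0.31 in the knockouts (adjusted p = 0.868) and -0.16 ± 0.23 on average (adjusted p = 0.631). Its WT replicate 3 had 41.2 TPM, against 17.8 and 17.2 TPM in the other WT libraries.

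The genotypes were then compared directly. In CPEB1-KO against WT no proteasome gene passed (0.0327% of all genes did). Without WT replicate 1 none passed either, whereas 8.31% of all genes did. Psme2 (-0.91 ± 0.41, adjusted p = 0.258), Psmd5 (0.43 ± 0.19, adjusted p = 0.258) and Psme4 (-0.67 ± 0.31, adjusted p = 0.267) had an unadjusted p under 0.05 (18.6% of all genes did), and DESeq2 called none (3.27% of all genes). In CPEB1-KO-LPS against WT-LPS none passed (0.00654% of all genes did) and DESeq2 called none (0.588% of all genes). There Psmg2, a 20S chaperone, alone had an unadjusted p under 0.05 (0.64 ± 0.24, adjusted p = 0.422), against 10.8% of all genes. Over both treatments no proteasome gene passed (0.111% of all genes did), none had an unadjusted p under 0.05 (11.6% of all genes did) and DESeq2 called none (0.706% of all genes). The median differences of the 46 genes were -0.011, 0.05 and 0.04 in these comparisons, against -0.03, 0.06 and 0.0080 over all genes. On the scale of log2(TPM + 1) the median of CPEB1-KO against WT was 0.33, where that of all genes was 0.26. For the catalytic subunits the averages over both treatments were -0.07 for Psmb5 (95% interval -0.50 to 0.35), 0.09 for Psmb6 (-0.20 to 0.38) and 0.18 for Psmb7 (-0.18 to 0.54). For the activators they were -0.35 for Psme1 (-0.96 to 0.25), -0.53 for Psme2 (-1.16 to 0.11), -0.06 for Psme3 (-0.37 to 0.26) and -0.39 for Psme4 (-0.88 to 0.098). These intervals leave room for differences in either direction.

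Whether the LPS response itself differed between genotypes was read from the interaction, the response in CPEB1-KO minus that in WT. No proteasome gene passed (0.00654% of all genes did), and DESeq2 called none (1.97% of all genes). Without WT replicate 1 none passed either, whereas 2.84% of all genes did. The ATPase Psmc4 (0.65 ± 0.27, adjusted p = 0.282) and the ubiquitin receptor Psmd4 (0.61 ± 0.26, adjusted p = 0.288) had an unadjusted p under 0.05, as did 15.5% of all genes. Psmd4 had 198, 159.8 and 205 TPM (WT), 265, 201 and 193 TPM (WT-LPS), 183, 186 and 181 TPM (CPEB1-KO) and 271, 240.2 and 234 TPM (CPEB1-KO-LPS). Its groups overlapped in wild type and not in the knockouts. The median interaction of the 46 genes was 0.17, against 0.05 over all genes. It was -0.28 on the scale of log2(TPM + 1), where that of all genes was -0.30. Its sign, like that of all genes, therefore depended on the scaling. Without WT replicate 1 it was 0.025, against 0.022 over all genes. For the catalytic subunits the interaction was 0.16 (Psmb5, 95% interval -0.70 to 1.03), 0.29 (Psmb6, -0.28 to 0.85) and -0.095 (Psmb7, -0.82 to 0.63). For the activators it was 0.61 (Psme1, -0.58 to 1.80), 0.75 (Psme2, -0.48 to 1.98), -0.52 (Psme3, -1.08 to 0.034) and 0.57 (Psme4, -0.38 to 1.51). The passing of 13 genes in one genotype and none in the other is therefore not shown to be a difference between them.

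**Figure D4:**
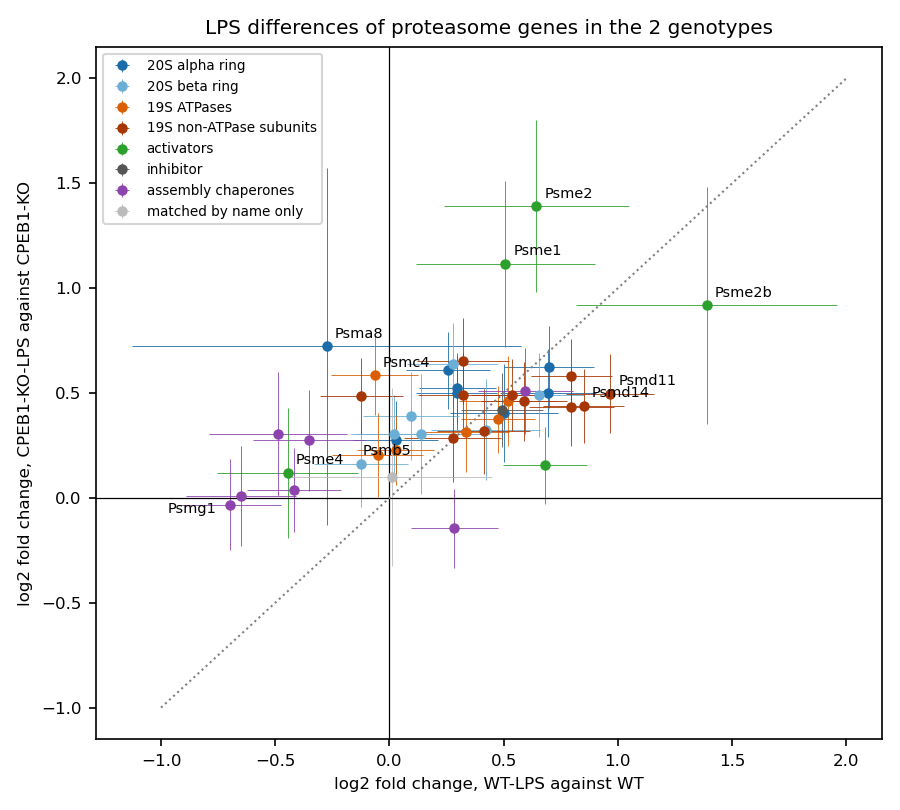
LPS difference of each proteasome gene in WT (horizontal axis) and in CPEB1-KO (vertical axis), both as log2 fold change with lines for 1 SE and colours for the class; the dotted line marks equal values. Of the 46 points, 44 lie above 0 on the vertical axis and 35 right of 0 on the horizontal axis, with the Psmg genes left of 0 (Psmg1 at -0.70 and -0.03); the axes share no libraries.

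Genes that work with the proteasome were taken from a list of 34 names, of which 31 were in the table. In WT-LPS against WT 8 of the 31 rose (against 12.4% of all genes) and 3 fell (against 14.9%). In CPEB1-KO-LPS against CPEB1-KO 1 rose (against 4.10%) and 3 fell (against 2.12%), and on average 6 rose (against 13.2%) and 4 fell (against 12.5%). None passed in the genotype comparisons or the interaction. Adrm1, the ubiquitin receptor of the cap that the naming rule misses, had 0.52 ± 0.18 in wild type (adjusted p = 0.0524), rose by 0.69 ± 0.18 in the knockouts (adjusted p = 0.0422) and by 0.60 ± 0.13 on average (adjusted p = 0.00448). Its call in the knockouts was kept in 3 of the 12 fits that left out 1 library. Sem1, the smallest cap subunit, listed as Shfm1, did not pass (-0.22 ± 0.20, adjusted p = 0.433 in wild type, and 0.22 ± 0.20, adjusted p = 0.605 in the knockouts). Pomp, the maturation factor of the 20S core, had -0.36 ± 0.20 in wild type (adjusted p = 0.186) and 0.14 ± 0.20 in the knockouts (adjusted p = 0.743).

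Nfe2l1, the transcription factor that induces proteasome genes when proteasome activity is low, had 106, 85.2 and 80.5 TPM in WT and 141, 104 and 115.7 TPM in WT-LPS, with overlap, and a difference of 0.12 ± 0.20 (adjusted p = 0.695). In the knockouts it had -0.20 ± 0.20 (adjusted p = 0.628). Ddi2, the protease that activates the protein made from Nfe2l1, had 5.15, 4.66 and 2.23 TPM in WT and 15.7, 36.9 and 28.98 TPM in WT-LPS. It rose by 2.41 ± 0.43 (adjusted p = 0.00187), and had 0.77 ± 0.40 in the knockouts (adjusted p = 0.309). Akirin2, which carries proteasomes into the nucleus, fell by 0.99 ± 0.19 in wild type (adjusted p = 0.00246), by 0.67 ± 0.18 in the knockouts (adjusted p = 0.0471) and by 0.83 ± 0.14 on average (adjusted p = 0.000736). Its call in the knockouts, like that of Adrm1, was kept in 3 of the 12 fits that left out 1 library. The heat shock genes Hspa1a and Hspa1b fell in both genotypes, Hspa1b by 5.45 ± 0.53 in wild type (adjusted p = 4.84e-05) and by 5.15 ± 0.52 in the knockouts (adjusted p = 9.02e-05). Zfand2a, a heat-inducible partner of the cap, rose on average by 0.67 ± 0.13 (adjusted p = 0.00262).

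The immunoproteasome subunits, which replace the catalytic subunits of the barrel, had average LPS differences of 0.63 ± 0.32 for Psmb8 (adjusted p = 0.163), -0.19 ± 0.35 for Psmb9 (adjusted p = 0.718) and 0.56 ± 0.18 for Psmb10 (adjusted p = 0.0388). The call of Psmb10 was kept in 4 of the 12 fits that left out 1 library, with an adjusted p of 0.108 without WT-LPS replicate 2. The TPM ratio of Psmb8 to Psmb5 was 0.205, 0.729 and 0.633 in WT, 0.195, 0.649 and 0.701 in WT-LPS, 0.425, 0.2002 and 0.166 in CPEB1-KO and 0.335, 0.377 and 0.604 in CPEB1-KO-LPS, so treated and untreated libraries overlapped in both genotypes. The ratio of Psmb9 to Psmb6 overlapped in both genotypes as well. The ratio of Psmb10 to Psmb7 was 0.211, 0.438 and 0.513 in WT and 0.208, 0.424 and 0.386 in WT-LPS, with overlap. In CPEB1-KO it was 0.223, 0.178 and 0.185 and in CPEB1-KO-LPS 0.253, 0.261 and 0.291, so there every treated library lay above the untreated ones.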

How the data were processed

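Libraries of 12 animals were analysed. The authors deposited expected counts, which are not normalised between libraries, and TPM (transcripts per 1e+06 transcripts, scaled within each library). Tools in the submitters' processing notes are RSEM and cutadapt, with mm10 as the build. Versions, the aligner, strandedness and read filters are not stated in the sources used here, and genes that overlap or share sequence may trade reads. Deposited expected counts were rounded and fitted with edgeR 4.0.16 in R 4.3.3 (filterByExpr, TMM, 15295 genes). A model with 4 group means on all 12 libraries (8 residual degrees of freedom) gave the comparisons and the interaction, and a model of genotype plus LPS gave the averages. P-values were adjusted over all 15295 genes at FDR 0.05 and are two-sided. SE is the size of the log2 change over the root of F. Depth was 5.02 to 13.5 M counts per library. Alternatives were RLE scaling, DESeq2 1.42.0, other filters (none, or CPM of at least 1 in 3 libraries), limma 3.58.1 on log2 of the deposited TPM plus 1 or 0.1, a replicate block, fits on 2 groups, and leaving out each library. A fit without WT replicate 1 and WT-LPS replicate 1 was added after the data had been seen.

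The gene rule and all lists were chosen with earlier results of these data known. Named in the LPS comparisons, the averages and the interaction are Psmb5, Psmb6, Psmb7 and Psme1 to Psme4. For CPEB1-KO against WT and CPEB1-KO-LPS against WT-LPS not all of them are given. Also named are up to 10 genes called in each direction, up to 2 genes per class by p, the extremes of TPM per class and up to 4 partners. The partner list holds genes of ubiquitin supply, shuttling, assembly and heat shock, and Psmd5, Psmd10, Psmg2 and Psmg3 were picked after their values were seen, as was Psmd4 for the interaction. Marker lists of 12 cell types were summed in TPM. In WT against WT-LPS the ranges of the sums did not overlap for astrocytes (6 markers, 388 to 764 against 1115 to 1833 TPM), endothelial and mural cells (6 markers, 20.1 to 28.0 against 52.1 to 145), choroid plexus (4 markers, 4392 to 7710 against 1106 to 2267), monocytes (4 markers, 33.7 to 55.4 against 235 to 481), border macrophages (4 markers, 24.7 to 36.2 against 10.5 to 15.6), erythroid cells (values in the report) and B cells (4 markers, 24.8 to 43.4 against 8.25 to 15.3; Ms4a1 at 0 in 1 or more libraries). In CPEB1-KO against CPEB1-KO-LPS they did not overlap for choroid plexus (7115 to 9095 against 2501 to 3694) and monocytes (13.8 to 80.3 against 92.6 to 146). In both genotypes they overlapped for the oligodendrocyte lineage (7 markers, 3728 to 7820 against 3817 to 7692 in WT against WT-LPS), neutrophils (4 markers, 1074 to 2670 against 1397 to 2977) and T and NK cells (3 markers, 7.87 to 14.8 against 7.23 to 11.6). Gene names were used as deposited, and positions and promoters come from RefSeq (GRCm38.p6).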

Additional observations from a re-analysis of the deposited data

How the results depend on the processing

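No alternative changed the sign of a value that passed the test. Of the results for single genes under the alternatives, 2305 kept their direction and side of the threshold, 170 lost a call, 53 gained one and 79 changed sign, all of these uncalled in both fits. The proteasome genes called in WT-LPS against WT numbered 13, and 14 with RLE size factors, 17 with DESeq2, 12 without a filter and 13 with a stricter one. They numbered 25 on log2(TPM + 1), 25 on log2(TPM + 0.1), 3 with only the 2 groups compared, and 5 to 15 when each library was left out. Of all genes 27.4% were called, and 27.6% with RLE, 33.2% with DESeq2, 21.2% without a filter and 27.5% with a stricter one. The share of all genes was 29.2% and 29.0% on the TPM scales, 17.7% with only the 2 groups, and 17.5% to 30.3% with each library left out. With only the 2 groups the fit has fewer libraries; elsewhere the cause was not tested. In CPEB1-KO-LPS against CPEB1-KO there were 0, and 10 with DESeq2, 1 without a filter, 1 and 1 on the 2 TPM scales, 5 with only the 2 groups, 2 without WT replicate 1 and WT-LPS replicate 1, and 0 to 1 with each library left out. The last values came from leaving out WT-LPS replicate 1 or 2. Of all genes 6.22% were called there, and 10.8% with DESeq2, 4.96% without a filter, 5.43% and 5.24% on the TPM scales. The share was 8.80% with only the 2 groups, 8.31% without WT replicate 1 and WT-LPS replicate 1, and 2.29% to 7.30% with each library left out. The average LPS difference had 22, and 12 to 23 with each library left out. Of all genes 25.7% were called for that difference, and 18.1% to 26.4% with each library left out. On log2(TPM + 1) and log2(TPM + 0.1) the median over the proteasome genes was 0.65 and 0.66 in WT-LPS against WT, 0.33 and 0.35 in CPEB1-KO against WT, -0.28 and -0.28 for the interaction, 0.55 and 0.55 for the average LPS difference and 0.19 and 0.19 for the average genotype difference. The median interaction ran from 0.025 to 0.18 with each library left out. The share of higher calls over all genes in WT-LPS against WT was 45.4%, and 75.7% on log2(TPM + 1).

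With the replicate number as a block, 9 proteasome genes were called in WT-LPS against WT (against 24.3% of all genes). There were 0 in CPEB1-KO-LPS against CPEB1-KO (against 4.37%) and 16 for the average LPS difference (against 22.0%). The labels do not say that a number marks shared animals or days. Of 18 pairs of libraries with the same number in different groups, 5 had deviations correlated above 0.1 (range -0.34 to 0.38, median -0.083, against 0.022 for other pairs). Between WT and WT-LPS the same-number pairs had 0.38, 0.15 and 0.18, above the other pairs of these groups (-0.32 to 0.14). Between CPEB1-KO and CPEB1-KO-LPS they had -0.029, 0.088 and -0.14. The numbers were not taken to pair the samples in the main fit, and a pairing of WT with WT-LPS was not tested.

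Values that changed sign, none of them called, were these log2 differences. Psmb5 in CPEB1-KO-LPS against WT-LPS was -0.052 with RLE, -0.052 with DESeq2, -0.065 without a filter, -0.028 and -0.028 on the TPM scales and -0.056 with only the 2 groups, and -0.20 to 0.18 with each library left out. Shfm1 for the average LPS difference was 0.011 with RLE, 0.012 with DESeq2, 0.035 without a filter, 0.13 and 0.13 on the TPM scales, 0.00032 with the replicate block and 0.066 without WT replicate 1 and WT-LPS replicate 1, and -0.082 to 0.11 with each library left out. On the TPM scales Shfm1 in WT-LPS against WT was 0.13 and 0.13. In CPEB1-KO against WT Psmb5 was 0.27 and 0.27 and Psmb6 0.29 and 0.29, and with each library left out they ran from -0.37 to 0.27 and from -0.15 to 0.022. For the interaction Psmb5 was -0.30 and -0.30 and Psmb6 -0.12 and -0.12, with Psmb5 from -0.26 to 0.38 and Psmb7 from -0.35 to 0.13 with each library left out. For the average LPS difference the TPM scales gave 0.081 and 0.082 for Nfe2l1, 0.031 and 0.031 for Pomp, 0.020 and 0.024 for Psmb9 and 0.037 and 0.040 for Psme4, with ranges of -0.11 to 0.027, -0.20 to 0.0042, -0.37 to 0.073 and -0.25 to 0.086. For the average genotype difference they gave 0.12 and 0.12 for Psmb5 and 0.084 and 0.086 for Psme3, with ranges of -0.17 to 0.12 and -0.15 to 0.0098. With each library left out in WT-LPS against WT, Nfe2l1 ran from -0.0016 to 0.30, Psmb8 from -0.11 to 0.56, Psmb5 from -0.075 to 0.57, Psmb6 from -0.075 to 0.15 and Psme4 from -0.70 to 0.043. In CPEB1-KO-LPS against CPEB1-KO Pomp ran from -0.0047 to 0.22 and Psmb9 from -0.20 to 0.85. In CPEB1-KO-LPS against WT-LPS Psmb7 ran from -0.00028 to 0.17, Psme1 from -0.50 to 0.32, Psme2 from -0.58 to 0.29 and Psme4 from -0.38 to 0.066.

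Depths of 5.02 to 13.5 M and 3 libraries per group limit what can be seen: standard errors of 0.16 to 0.20 were usual for 20S and 19S subunits within a genotype. The smallest difference called among them in WT-LPS against WT was 0.48 (Psmc6), while 0.65 (Psmd3) and 0.61 (Psma7) were not called in the knockouts. P-values were adjusted within each comparison, and 27.4% of all genes were called in the first against 6.22% in the second. An unadjusted p that passed in wild type could therefore fail in the knockouts at a similar standard error.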
